A study of Mus musculus with 9 samples.

Results

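The comparison described here is that of CD4+ T cells stimulated in the presence of TRAIL with CD4+ T cells stimulated without it. Its members are the genes that reached 1 TPM in at least 3 of the 6 libraries of these groups, which were 14895 of the 55487 genes listed. All groups came from the spleens of wild type (Trail-r+/+) C57BL/6 mice, described in the study's methods as females of 6 to 7 weeks, and CD4+ T cells were enriched by negative selection and cultured in RPMI-1640 with fetal calf serum. The stimulated group received Abs against CD3 at 3 µg/ml and against CD28 at 2 µg/ml for 24 h, the TRAIL-treated group received the same Abs plus 10 µg/ml of TRAIL over the same time, and a group kept in medium alone is given beside them for reference. The culture time of the medium group is not stated. Each group held 3 RNA-seq libraries. Nothing in the labels says that the libraries of a group came from separate mice or cultures, so p-values measure the spread between these libraries, which may be technical.

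TRAIL belongs to the tumor necrosis factor ligands, and its receptor TRAIL-R, encoded by Tnfrsf10b in the mouse, carries a death domain that can recruit caspase-8. Abs against CD3 and CD28 replace antigen and costimulation and start the kinase cascade of the T cell receptor (TCR), which leads through NFAT, AP-1 and NF-κB to cytokine production, growth and division. Within a day, activated CD4+ T cells normally switch from a resting metabolism to glycolysis, amino acid uptake and nucleotide synthesis, and lose transcripts that hold naive cells at rest. The study asked how TRAIL-R signaling alters this program.

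Values are TPM (transcript abundance scaled to a fixed library total), which correct reads for transcript length and set each library to one common sum, so that they are shares and keep no read depth. Fold changes are given as TRAIL-treated minus stimulated on the scale of log2(TPM + 1), with ± marking the standard error, and they understate the change of genes with low TPM. TPM values of a gene are given for replicates 1, 2 and 3 in that order, or as the mean ± SD (n = 3). A gene was called higher or lower when limma gave a Benjamini-Hochberg adjusted p below 0.05 over all genes tested and the log2 fold change was 1 or more in either direction. With 3 libraries against 3, an exact permutation test of one gene cannot give a two-sided p below 0.1.

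The groups differed in the level of cell type markers. Defining T cell transcripts were abundant in every library, and the summed level of 12 T cell markers was 4535 to 4713 TPM after stimulation and 5340 to 5755 TPM with TRAIL. Most markers of other splenic cells, however, were higher with TRAIL. Over 9 lists of such markers (B cell, MHC class II, plasma cell, macrophage, neutrophil and monocyte, dendritic, erythroid, platelet and stromal), 79 of 94 genes tested were called higher and 4 lower, beside 17.0% and 14.9% of all genes. Of these, 22 reached 1 TPM in libraries of 1 group only, so that their direction was fixed by the filter, and of the other 72, 59 were higher and 4 lower. Their summed level was 2938 to 3211 TPM after stimulation, 15406 to 16698 TPM with TRAIL and 26496 to 26938 TPM in medium. Called higher were 13 of 13 red pulp macrophage markers (8 of 8 at 1 TPM in both groups, summed level 72 to 76.6 TPM after stimulation and 1645 to 1896 TPM with TRAIL), 17 of 17 neutrophil and monocyte markers (13 of 13 at 1 TPM in both groups, 107 to 130.02 TPM after stimulation and 1185 to 1359 TPM with TRAIL), 9 of 10 plasma cell markers (8 of 9 at 1 TPM in both groups, 103 to 119 TPM after stimulation and 1488 to 1694 TPM with TRAIL) and 13 of 14 B cell markers (1159 to 1249 TPM after stimulation and 5806 to 6513 TPM with TRAIL). Erythroid markers had 9 of 11 called higher and 1 lower (5 higher and 1 lower of the 7 at 1 TPM in both groups), with a summed level of 258 to 269 TPM after stimulation and 735 to 795 TPM with TRAIL. Dendritic cell markers did not share this direction in their summed level (226 to 241 TPM after stimulation and 127 to 144 TPM with TRAIL), with 5 of 11 called higher and 3 lower (1 higher and 3 lower of the 6 at 1 TPM in both groups). NK cell markers, counted apart from the 9 lists, had 5 of 10 higher and 1 lower (251 to 335 TPM after stimulation and 269 to 308 TPM with TRAIL). CD8 T cell markers, also counted apart, had 0 of 7 higher and 1 lower (151 to 161 TPM after stimulation and 112 to 118 TPM with TRAIL). Of these 2 CD8 shares, only the lower one was near that of all genes. Among the defining markers, Vsig4 of macrophages, Retnlg of neutrophils and Slc4a1 of red cells were listed at 0.0001 TPM, the floor of the table, in all stimulated libraries. In bulk RNA, fewer cells of a type and less RNA per cell cannot be told apart. The part of these cells in the results below was not tested, and it applies to every gene that they also express, whether or not this is said beside it.

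**Figure D1:**
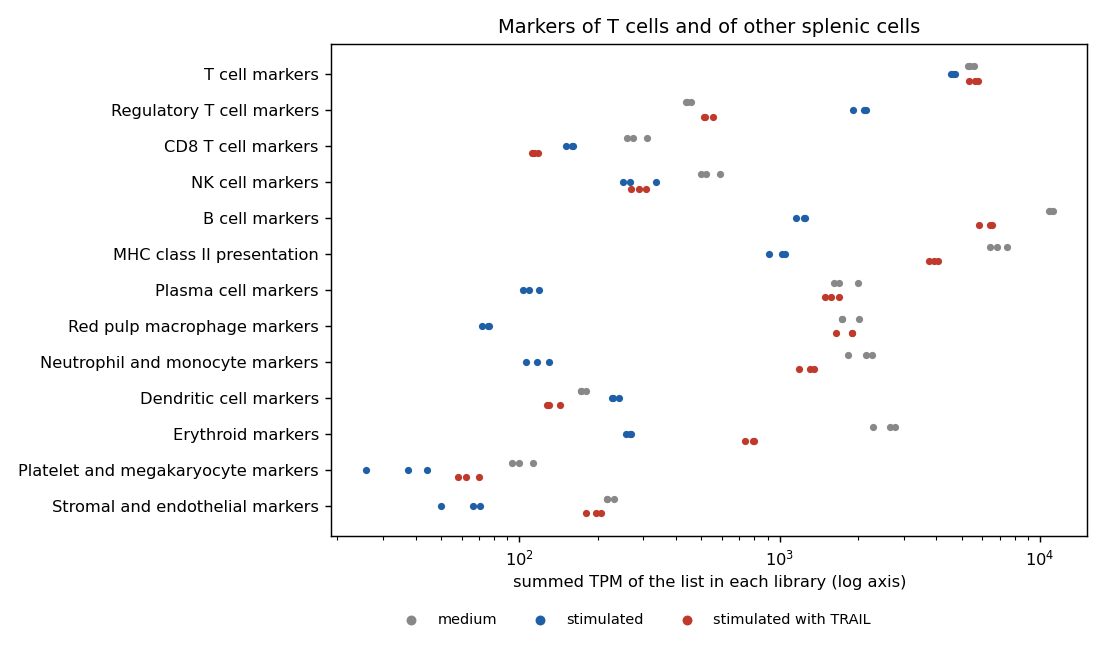
Summed TPM of the genes in each marker list, on a log axis, with 1 point per library and 3 libraries in each of the medium, stimulated and TRAIL-treated groups. Markers of B cells, plasma cells, macrophages, neutrophils and red cells lie higher in the TRAIL-treated than in the stimulated libraries. T cell markers lie higher too, by less, at 5340 to 5755 TPM against 4535 to 4713 TPM.

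TRAIL-treated cells differed from stimulated cells in 4746 genes, or 31.9% of those tested. Of these, 2528 (17.0%) were higher with TRAIL and 2218 (14.9%) lower. The libraries of the groups did not overlap for 70.9% of genes, with TRAIL above for 34.6% and below for 36.3%, and 67.7% had an adjusted p below 0.05 at any fold. These shares are the background for every count of members below. Where members of a list reached 1 TPM in libraries of only 1 group, their direction was fixed by the filter, and the count over members that reached it in a library of both groups is given as well. The median gene differed by -0.02 on the log2 scale, and this sign turned in some alternatives (0.04 on rescaling without markers of other cells). The middle 50% of genes lay between -0.65 and 0.66, and 293 genes were higher by at least 3 and 125 lower by at least 3. Only 257 genes (1.73%) had a 95% interval that lay within -0.3 and 0.3. Protein-coding genes were divided almost evenly, with 1821 higher and 1860 lower of 11559.

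**Figure D2:**
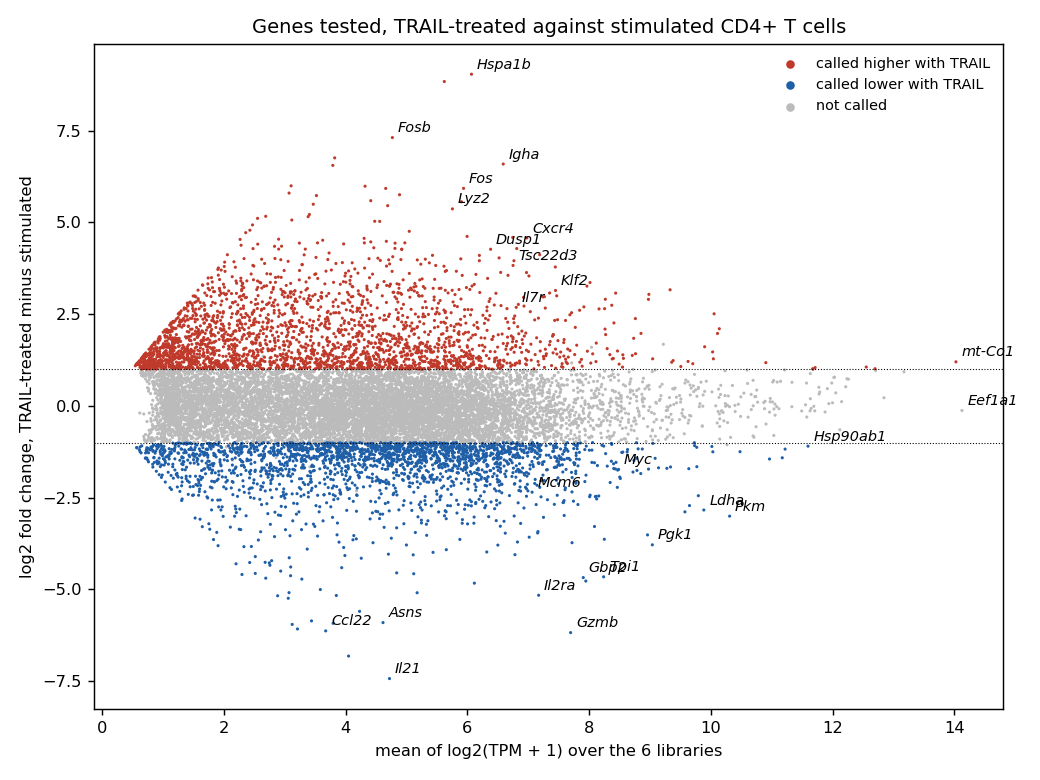
Log2 fold change (TRAIL-treated minus stimulated) of each gene tested against its mean of log2(TPM + 1) over the 6 libraries, with genes called higher in red, called lower in blue and others in grey, and dotted lines at 1 and -1. Among the genes labelled, Hspa1b, Fosb and Igha stand highest, and Il21, Gzmb and Ccl22 lowest.

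Many cytokine genes of helper T cells were lower with TRAIL. Of 28 helper T cell cytokine genes tested, 19 were lower and 1 was higher, with a median log2 fold change of -2.05. Over the 19 at 1 TPM in both groups, 10 were lower and 1 higher, with a median of -1.90. Il21, the cytokine of follicular helper cells, measured 345, 346 and 346 TPM in stimulated and 0.83, 1.22 and 0.995 TPM in TRAIL-treated libraries. Il13, a cytokine of type 2 responses, measured 48.4, 54.8 and 47.8 TPM without and 0.198, 0.267 and 0.633 TPM with TRAIL. Csf2, which encodes GM-CSF, measured 30.3, 28 and 23.4 TPM after stimulation and 0.546, 0.653 and 0.221 TPM with TRAIL. The log2 fold change of Il21 was -7.43 ± 0.16 (adjusted p = 3.0e-10 from limma). Il13 and Csf2 were under 1 TPM in all TRAIL-treated libraries and passed the filter through the stimulated group, which fixed their direction, so their values are a description. The same holds for Ccl22, Pycr1 and Cth below, and in the opposite direction for Ccr3. Il24 was listed at 0.0001 TPM in all 3 TRAIL-treated libraries against 27.4, 21.2 and 21.5 TPM after stimulation, so no fold is given. Without the 4 cytokine genes at the floor in a whole group, the median of the list was -1.99. Areg, which encodes the epidermal growth factor family ligand amphiregulin, was the member called higher (1.08, 0.754 and 1.04 TPM in stimulated and 8.39, 8.66 and 7.67 TPM in TRAIL-treated libraries).

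Other effector genes were also lower more often than higher. Of 12 granzyme and granule genes, 6 were lower and 1 was higher (0 higher and 6 lower of the 10 at 1 TPM in both groups). Serpinb9, an inhibitor of granzyme B, measured 96.9, 88.5 and 86.1 TPM without and 10.2, 12.7 and 12.3 TPM with TRAIL, and Srgn, the proteoglycan that packs granules, measured 2728, 1916 and 2040 TPM after stimulation and 798, 929 and 1068 TPM with TRAIL. Among chemokines 7 of 14 were lower and 3 higher (3 higher and 5 lower of the 12 at 1 TPM in both groups). Ccl22, a ligand of Ccr4, measured 106, 106 and 106 TPM in stimulated and 0.414, 0.549 and 0.613 TPM in TRAIL-treated libraries, and the macrophage inflammatory protein gene Ccl4 measured 201, 147 and 125 TPM without and 43.1, 42.9 and 55.6 TPM with TRAIL. The chemokines called higher were Ccl5, Ccl6 and Cxcl2, and Ccl6 is also a transcript of myeloid cells, whose markers were higher with TRAIL. Ligands and receptors of the TNF superfamily had 10 of 16 lower (4 higher and 9 lower of the 15 at 1 TPM in both groups), among them Tnfrsf4 (OX40), Tnfrsf9 (4-1BB), Tnfrsf8 (CD30) and Tnfrsf18 (GITR), receptors that costimulate activated T cells. Tnfrsf4 measured 1025, 1076 and 1119 TPM after stimulation and 84.5, 83.8 and 87.9 TPM with TRAIL, which differed on the log2 scale by -3.64 ± 0.08 (adjusted p = 4.5e-10 from limma). Of the 4 called higher, which included the TNF receptor genes Tnfrsf1a and Tnfrsf1b, Cd40lg, the ligand by which helper cells act on B cells, measured 29.7, 34.1 and 31.1 TPM in stimulated and 202, 203 and 182 TPM in TRAIL-treated libraries. Tnfsf11 (RANKL) measured 4.44, 4.8 and 3.59 TPM without and 35.3, 38.2 and 40.7 TPM with TRAIL. All 3 TRAIL-treated libraries lay above the stimulated ones for both ligands.

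Receptors for cytokines and chemokines moved in both directions. Cytokine receptors had 11 of 26 higher and 5 lower. Il2ra, the high-affinity subunit of the IL-2 receptor (CD25), measured 723, 944 and 938 TPM after stimulation and 25.3, 23.4 and 20.8 TPM with TRAIL, and Il12rb2, a subunit of the IL-12 receptor, measured 84.2, 157 and 164 TPM in stimulated and 1.83, 2.03 and 1.28 TPM in TRAIL-treated libraries. Il7r, the receptor of the survival cytokine IL-7 on resting T cells, measured 35.5, 47.4 and 47.3 TPM without and 315, 283 and 252 TPM with TRAIL. Whereas Il2ra was -5.16 ± 0.13, Il7r was 2.68 ± 0.13 on the log2 scale (adjusted p = 6.8e-10 and 4.0e-08 from limma). Chemokine receptors had 9 of 15 higher and 3 lower (4 higher and 3 lower of the 10 at 1 TPM in both groups). Cxcr4, a receptor for retention in bone marrow and lymphoid tissue that B cells and myeloid cells express too, measured 23.5, 26.3 and 24.7 TPM after stimulation and 587, 651 and 607 TPM with TRAIL, and Ccr8 measured 131, 127 and 140.5 TPM in stimulated and 28.3, 33.1 and 30.6 TPM in TRAIL-treated libraries. Ccr3 and Ccr6 were also called higher, and both are used by other blood cells. Among surface molecules of activation and homing, 6 of 20 were higher and 4 lower. S1pr1, the receptor for exit from lymphoid tissue, measured 31.2, 43.3 and 30.8 TPM without and 451, 459 and 415 TPM with TRAIL, and Itga4, an integrin subunit, measured 8.05, 16.9 and 15.9 TPM after stimulation and 198, 176 and 157 TPM with TRAIL. Cd69, an early activation antigen, was 380.1 ± 12.4 TPM after stimulation and 733 ± 128 TPM with TRAIL and stayed under the fold threshold at 0.93 ± 0.14 (adjusted p = 1.4e-04 from limma), with all TRAIL-treated libraries above the stimulated ones.

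Among transcription factors and feedback genes of the cytokine pathways, more genes were lower than higher. Of 26 helper lineage factors, 12 were lower and 5 higher. Irf4, a factor whose level follows TCR strength, measured 578, 794 and 829.6 TPM in stimulated and 166, 189 and 195 TPM in TRAIL-treated libraries. Hif1a, the oxygen-sensing factor that drives glycolysis genes, measured 700.2, 929 and 945 TPM without and 91, 92.7 and 75.6 TPM with TRAIL. Bcl6, the factor of follicular helper cells, measured 5.36, 8.06 and 6.8 TPM after stimulation and 37.4, 36.2 and 32.2 TPM with TRAIL, and Tox measured 4.07, 5.44 and 5.45 TPM in stimulated and 38, 34 and 29.2 TPM in TRAIL-treated libraries. The former pair fell and the latter pair rose, and no library overlapped. STAT and SOCS genes had 9 of 22 lower, including the feedback inhibitors Cish (189, 219.8 and 212 TPM without and 16.8, 15.8 and 14.5 TPM with TRAIL) and Socs1 (147, 117 and 105 TPM after stimulation and 10.8, 13.6 and 12.1 TPM with TRAIL). Jak1, the kinase of many cytokine receptors, was the member called higher (216 ± 43.4 TPM after stimulation and 519 ± 37.7 TPM with TRAIL). Regulatory T cell markers had 2 of 10 higher and 4 lower. Foxp3, the factor that defines these cells and is named here after its value was seen, was 25.5 ± 5.9 TPM after stimulation and 25.1 ± 2.83 TPM with TRAIL, with a log2 fold change of 0.00 ± 0.19, whereas Nrp1 and Ikzf2 were called higher and Il2ra and Tnfrsf18 lower.

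**Figure D3:**
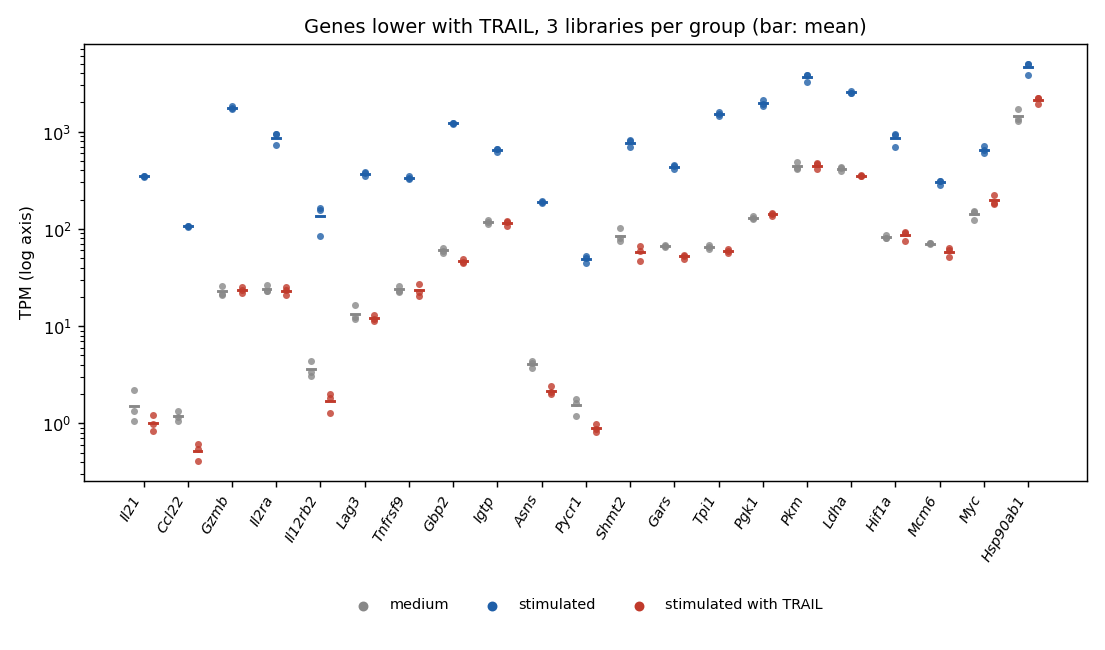
TPM on a log axis of 21 genes that were lower with TRAIL, with 1 point per library, bars at the group means and 3 libraries each in medium (grey), stimulated (blue) and TRAIL-treated (red) groups. The TRAIL-treated points lie below all stimulated points for every gene shown, and for Gzmb and Tpi1 they lie at 21.9 to 25.1 and 56.9 to 61.4 TPM.

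Interferon-inducible GTPases, which attack the vacuoles of intracellular pathogens and are induced by interferon-γ, were lower as a group. Of 18 tested, 12 were lower and 0 higher, and the median log2 fold change was -1.78. Gbp2, a guanylate-binding protein, measured 1231, 1188 and 1219 TPM in stimulated and 44.5, 48.8 and 45.8 TPM in TRAIL-treated libraries (-4.68 ± 0.08, adjusted p = 9.6e-11 from limma). Igtp, an immunity-related GTPase, measured 612, 661 and 670.3 TPM without and 121, 119 and 108 TPM with TRAIL, and Iigp1 measured 169.8, 191 and 186 TPM after stimulation and 19, 19.2 and 18.5 TPM with TRAIL. The stimulated and TRAIL-treated libraries were separated by several-fold in each. Type I interferon-stimulated genes did not share this direction, with 11 of 38 higher and 7 lower. The higher ones were led by the DNA sensor family genes Ifi203, Ifi213 and Ifi208, and Ifi203 measured 21.9, 38.6 and 30.7 TPM in stimulated and 286, 247 and 236 TPM in TRAIL-treated libraries. MHC class I presentation genes had 6 of 19 lower, among them the immunoproteasome subunits Psmb8 and Psmb9 (the latter at -1.18, and at -0.95 and not called under quantile normalization), while B2m, the light chain of class I molecules, was 3869 ± 569 TPM after stimulation and 4016 ± 359 TPM with TRAIL (0.06 ± 0.15) with overlapping libraries.

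The promoters of these GTPases were read for the letters of the interferon-stimulated response element and the γ-activated site, the elements through which interferons act. The 250 bases before the start of RefSeq transcripts of GRCm38.p6 were searched on both strands for GAAANNGAAA or TTCNNNGAA. A match was found for 8 of the 9 GTPases called lower that had a promoter in the table, of 12 called, compared with 11.1% of all 27025 genes. The stretches below run 5′ to 3′ on the strand of the gene, with the matches in capitals, and Tgtp2 shares near-identical sequence and possibly reads with Tgtp1.
Gbp2 (chr3:142620554-142620633, plus strand): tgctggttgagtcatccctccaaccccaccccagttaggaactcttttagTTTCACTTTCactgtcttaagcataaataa
Igtp (chr11:58199472-58199551, plus strand): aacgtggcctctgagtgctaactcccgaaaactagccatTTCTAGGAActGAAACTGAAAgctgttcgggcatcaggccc
Irgm1 (chr11:48871421-48871500, minus strand): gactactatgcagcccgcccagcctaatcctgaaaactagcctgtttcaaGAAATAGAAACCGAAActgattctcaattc
Tgtp2 (chr11:49064253-49064332, minus strand): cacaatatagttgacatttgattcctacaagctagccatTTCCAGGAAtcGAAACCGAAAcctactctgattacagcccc
In Gbp2 the match reads on the opposite strand. A match is a description of the letters and does not show that a factor binds there.

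Amino acid supply had the lowest median of the 54 program lists. The program of ATF4, a factor that raises amino acid transporters and the enzymes of serine, asparagine and one-carbon metabolism, had 25 of 29 genes lower and 1 higher, with a median of -3.002. Over the 20 at 1 TPM in both groups, 16 were lower and 1 higher, with a median of -2.47, also the lowest of the lists so counted. Asns, asparagine synthetase, measured 192, 188 and 186 TPM without and 2.09, 1.99 and 2.43 TPM with TRAIL (-5.91 ± 0.10, adjusted p = 9.6e-11 from limma). Shmt2, the mitochondrial serine hydroxymethyltransferase, measured 689.7, 799 and 819.5 TPM after stimulation and 66.4, 59.5 and 46.6 TPM with TRAIL, and Pycr1, an enzyme of proline synthesis, measured 44.5, 52.7 and 49.9 TPM in stimulated and 0.822, 0.977 and 0.883 TPM in TRAIL-treated libraries. The groups did not overlap for Asns and Shmt2. Cth, which makes cysteine, measured 83.9, 70.7 and 71.6 TPM without and 0.191, 0.0679 and 0.119 TPM with TRAIL. Atf4 itself was 665 ± 25.6 TPM after stimulation and 415 ± 17.7 TPM with TRAIL, and its log2 fold change of -0.68 ± 0.08 (adjusted p = 3.3e-05 from limma) was under the fold threshold. Slc38a2, a transporter of small neutral amino acids, was the member called higher (114, 125 and 118 TPM after stimulation and 291, 322 and 308 TPM with TRAIL). Aminoacyl-tRNA synthetases, which charge tRNAs, had 19 of 21 lower and a median of -2.06. Gars, for glycine, measured 415, 452 and 441 TPM in stimulated and 52.9, 54.5 and 49.3 TPM in TRAIL-treated libraries, and Nars, for asparagine, measured 538, 707 and 589 TPM without and 105, 110.1 and 109 TPM with TRAIL.

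Upstream of ATF4 targets, the composite C/EBP-ATF element was searched as TGATGNAAT or TGATGNAAC, in the same windows and on both strands. It was found for 4 of the 21 lower members with a promoter (25 called), compared with 1.66% of all genes, and the choice to read this list was made after its values were seen. Of the 25 called lower, 16 reached 1 TPM in both groups. The direction of the others, Pycr1 among them, was fixed by the filter, and the share with a match was not counted without them. Stretches of 3 of them are shown with the match in capitals, which in Chac1 reads on the opposite strand.
Asns (chr6:7693210-7693289, minus strand): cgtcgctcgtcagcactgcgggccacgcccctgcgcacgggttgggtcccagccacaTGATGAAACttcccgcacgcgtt
Pycr1 (chr11:120643823-120643902, minus strand): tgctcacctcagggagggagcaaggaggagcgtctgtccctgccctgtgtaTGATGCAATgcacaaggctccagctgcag
Chac1 (chr2:119350997-119351076, plus strand): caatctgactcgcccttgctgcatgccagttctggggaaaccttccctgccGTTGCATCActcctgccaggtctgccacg

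Glycolytic genes were lower or not called, and several were among the most abundant transcripts of stimulated cells. Of 28 genes of glycolysis and the pentose phosphate path, 17 were lower and 0 higher, and the summed level of the list was 16472 to 17661 TPM after stimulation and 2596 to 2862 TPM with TRAIL. Tpi1, triosephosphate isomerase, measured 1591, 1462 and 1504 TPM after stimulation and 59, 61.4 and 56.9 TPM with TRAIL. Pgk1, phosphoglycerate kinase, measured 2112, 1922 and 1838 TPM in stimulated and 141, 146 and 135 TPM in TRAIL-treated libraries, and Pkm, pyruvate kinase, measured 3198, 3822 and 3799 TPM without and 473, 460.2 and 409 TPM with TRAIL. Together with Ldha, lactate dehydrogenase A, at 2637, 2477 and 2473 TPM after stimulation and 347, 351 and 359 TPM with TRAIL, and the lactate exporter Slc16a3 at 105, 126 and 119 TPM in stimulated and 10.1, 10.7 and 8.45 TPM in TRAIL-treated libraries, these genes left no overlap between the groups. Hexokinase 2 (Hk2) was 84.4, 139 and 139.8 TPM without and 7.42, 8 and 7.38 TPM with TRAIL, and stimulated replicate 1 was the lowest of its group. The log2 fold changes were -4.66 ± 0.08, -3.79 ± 0.09 and -3.01 ± 0.11 for the first 3 (adjusted p = 9.6e-11, 4.9e-10 and 6.9e-09 from limma). Reads of several glycolytic genes can also match their processed pseudogenes, so their separate values carry that uncertainty.

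Synthesis of lipids and nucleotides was also lower in part. Cholesterol and fatty acid synthesis had 16 of 28 genes lower, with Sqle, squalene epoxidase, at 54, 57.8 and 61.1 TPM after stimulation and 13.5, 12.2 and 10.6 TPM with TRAIL. Scd1, stearoyl-CoA desaturase, was its member called higher (12.5, 17.5 and 18.1 TPM in stimulated and 85.4, 83.4 and 75.8 TPM in TRAIL-treated libraries). Purine and pyrimidine synthesis had 16 of 22 lower, and Ctps, CTP synthetase, measured 77.8, 83.6 and 81.8 TPM without and 21.5, 20.02 and 19.5 TPM with TRAIL. In polyamine metabolism, below the share of all genes in both directions, 1 of 11 was lower, spermidine synthase Srm (209.6, 206 and 208 TPM after stimulation and 23.1, 26.1 and 17.1 TPM with TRAIL), and 1 higher, the catabolic enzyme Sat1 (139.8, 109 and 117 TPM in stimulated and 304, 358 and 380.5 TPM in TRAIL-treated libraries). Nuclear genes of oxidative phosphorylation had 29 of 76 lower and 1 higher.

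DNA replication genes were lower with TRAIL, with 34 of 41 genes lower, 0 higher and a median of -1.70. Mcm6, a subunit of the replicative helicase, measured 285, 311 and 308 TPM without and 60.3, 64.2 and 50.9 TPM with TRAIL, and Mcm3 measured 204, 248 and 243 TPM after stimulation and 38.1, 37.8 and 32.6 TPM with TRAIL. Uhrf1, which keeps DNA methylation through replication, measured 109, 157 and 155 TPM in stimulated and 18.1, 18 and 13.7 TPM in TRAIL-treated libraries. All 3 fell without overlap, whereas Pcna, the sliding clamp, was 562, 437 and 449.9 TPM without and 329, 373 and 454 TPM with TRAIL, with overlapping libraries and a log2 fold change of -0.33 ± 0.16. Cyclins, kinases and E2F genes of G1 had 13 of 29 lower and 4 higher (3 higher and 11 lower of the 26 at 1 TPM in both groups). Ccnd2, the D-type cyclin of activated lymphocytes, measured 357, 549 and 542 TPM after stimulation and 106, 95.6 and 78.2 TPM with TRAIL. Cdkn1b, which encodes the cyclin-dependent kinase inhibitor p27, measured 57.8, 64.8 and 62.5 TPM in stimulated and 245, 249 and 246 TPM in TRAIL-treated libraries, which differed on the log2 scale by 1.98 ± 0.08 (adjusted p = 1.4e-08 from limma). Of mitosis and spindle genes, 9 of 36 were lower and 3 higher. Aurkb, aurora kinase B, fell (21.3, 25 and 23.2 TPM without and 7.93, 8.77 and 6.77 TPM with TRAIL), while the centromeric histone gene Cenpa rose (17.6, 15.4 and 16.1 TPM after stimulation and 104, 98.9 and 87.1 TPM with TRAIL).

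E2F factors switch on replication genes, and their site was searched as TTTCCCGC, TTTGGCGC or TTTCGCGC. It was present for 8 of the 27 lower replication genes with a promoter (34 called), compared with 1.78% of all genes. The stretches of 3 of them are shown with the sites in capitals, which overlap each other in Mcm6 and Mcm5.
Mcm6 (chr1:128359725-128359835, minus strand): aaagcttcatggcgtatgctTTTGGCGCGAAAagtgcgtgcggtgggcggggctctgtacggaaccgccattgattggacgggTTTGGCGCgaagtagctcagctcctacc
Mcm5 (chr8:75109308-75109387, plus strand): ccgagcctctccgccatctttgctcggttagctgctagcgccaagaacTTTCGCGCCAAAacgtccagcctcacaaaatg
Uhrf1 (chr17:56304076-56304155, plus strand): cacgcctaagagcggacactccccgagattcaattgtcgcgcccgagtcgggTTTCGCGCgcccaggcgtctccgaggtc

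The machinery that makes and folds protein was lower in part. Nucleolar ribosome biogenesis had 25 of 40 genes lower, and Ncl, nucleolin, measured 1074, 1160 and 1125 TPM in stimulated and 343, 339.97 and 346 TPM in TRAIL-treated libraries. Mitochondrial ribosomal proteins had 44 of 78 lower, proteasome subunits 25 of 34, and translation initiation factors 20 of 53, with 2 higher. Eif4ebp1, an inhibitor of cap-dependent translation and an ATF4 target, measured 157, 126 and 132 TPM without and 4.11, 5.28 and 5.43 TPM with TRAIL, and Eif5a measured 2207, 1999 and 2022 TPM after stimulation and 380.3, 396 and 362 TPM with TRAIL. In contrast, of 78 cytosolic ribosomal protein genes 1 was called lower and 0 higher, and the median was 0.02, which turned to -0.06, -0.05 and -0.04 without stimulated replicate 2, stimulated replicate 3 and TRAIL-treated replicate 3. The lower one was Rps2 (4097, 3360 and 3357 TPM in stimulated and 1536, 1717 and 1508 TPM in TRAIL-treated libraries), which has many pseudogenes that can share its reads. Rpsa was 4386 ± 551 TPM after stimulation and 4728 ± 292 TPM with TRAIL, with overlapping libraries.

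Chaperones divided by type. The chaperonins of cytosol and mitochondria had 8 of 12 lower, and Hspd1 (HSP60) measured 883, 942 and 919 TPM without and 269, 269 and 291 TPM with TRAIL. Cytosolic heat shock chaperones had 8 of 28 higher and 9 lower (6 higher and 9 lower of the 26 at 1 TPM in both groups), with a median of -0.04 whose sign turned under quantile normalization and under rescaling without markers of other cells. Hspa1a, an inducible HSP70, measured 1, 1.43 and 1.5 TPM after stimulation and 1143, 1093 and 933 TPM with TRAIL. Hspa1b, its near-identical paralog, measured 1.73, 2.05 and 2.01 TPM in stimulated and 1690, 1602 and 1343 TPM in TRAIL-treated libraries, and the division of reads between them is uncertain. In medium, Hspa1b measured 288, 389 and 328 TPM, between the other groups. Dnajb4, an HSP40 cochaperone, measured 9.91, 10.6 and 11.2 TPM without and 110.4, 124 and 146 TPM with TRAIL. Their log2 fold changes were 8.84 ± 0.14, 9.04 ± 0.13 and 3.46 ± 0.11 (adjusted p = 7.0e-11, 7.0e-11 and 3.7e-09 from limma). Hspa8, the constitutive HSP70, was 3295 ± 279 TPM after stimulation and 3139 ± 317 TPM with TRAIL, and Hsp90aa1 was 1082 ± 21 TPM after stimulation and 1086 ± 109 TPM with TRAIL, both with overlapping libraries. The HSP90 isoform Hsp90ab1 fell (4566 ± 672 TPM after stimulation and 2120 ± 162 TPM with TRAIL), though on rescaling without markers of other cells its log2 fold change went from -1.10 to -0.99 and the call was lost. Lower, too, were its cochaperones Stip1 (392, 488 and 496 TPM after stimulation and 107, 112 and 96.7 TPM with TRAIL) and Fkbp4 (313, 319.96 and 330.3 TPM in stimulated and 101, 106 and 103 TPM in TRAIL-treated libraries). In the endoplasmic reticulum 8 of 25 genes were lower and 2 higher. Dnajb9, an HSP40 of the endoplasmic reticulum, rose (18.5, 16.7 and 16.2 TPM without and 139.9, 170.4 and 169.8 TPM with TRAIL), and Xbp1, a factor of the unfolded protein response, fell (309, 301 and 294 TPM after stimulation and 102, 118 and 112 TPM with TRAIL).

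Heat shock factor binds repeats of a 5-base unit whose core is GAA or its reverse complement TTC. A form of 3 units, GAANNTTCNNGAA or TTCNNGAANNTTC, matched 0 of the 8 higher chaperone genes and 0.514% of all genes. A looser form of 2 units, GAANNTTC or TTCNNGAA, was added after that result was seen, and it matched 5 of the 8 higher genes and 1 of the 7 lower genes with a promoter, compared with 14.5% of all genes. This form was thus chosen with the outcome of the stricter one known. Of the 8 higher genes, 6 reached 1 TPM in both groups, and the share with a match was not counted over these alone. The stretches shown have the match in capitals, and that of Hspa1a has the same letters as the one at the same distance from the start of Hspa1b.
Hspa1a (chr17:34972233-34972312, minus strand): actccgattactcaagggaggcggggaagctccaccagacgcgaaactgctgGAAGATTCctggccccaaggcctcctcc
Dnajb4 (chr3:152193846-152193925, minus strand): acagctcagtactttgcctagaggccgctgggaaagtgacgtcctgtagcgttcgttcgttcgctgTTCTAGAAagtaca

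Immediate early genes, which are transcribed within minutes of a signal and need no new protein, had the highest median of the 54 program lists (1.97). Of 28, 20 were higher and 2 lower, and their summed level was 3163 to 3529 TPM after stimulation and 10474 to 11454 TPM with TRAIL. Fosb, a partner in AP-1 factors, measured 1.09, 1.25 and 1.15 TPM in stimulated and 329, 356 and 342 TPM in TRAIL-treated libraries, and Fos measured 8.19, 7.5 and 5.22 TPM without and 460.01, 516 and 458 TPM with TRAIL. Junb, another AP-1 subunit, measured 554, 574 and 543 TPM after stimulation and 2043, 2350 and 2182 TPM with TRAIL, and Nr4a1, an orphan nuclear receptor induced by the TCR, measured 201, 239 and 205 TPM in stimulated and 1872, 1966 and 1941 TPM in TRAIL-treated libraries. The log2 fold changes were 7.31 ± 0.12, 5.93 ± 0.15, 1.97 ± 0.09 and 3.16 ± 0.11 (adjusted p = 7.9e-11, 6.8e-10, 3.2e-08 and 4.0e-09 from limma), without overlap. Dusp1, a phosphatase that turns off MAP kinases, measured 18.1, 17.5 and 18.5 TPM without and 323, 415 and 363 TPM with TRAIL, and Klf4 measured 3.11, 3.71 and 3.61 TPM after stimulation and 60.1, 71.8 and 65.5 TPM with TRAIL. The lower members were Myc, the growth factor-induced regulator of ribosome and metabolic genes (596, 715 and 650.3 TPM in stimulated and 223, 185 and 181 TPM in TRAIL-treated libraries), and the AP-1 gene Fosl1 (7.33, 12.9 and 11.8 TPM without and 2.26, 3.21 and 2.81 TPM with TRAIL), whose log2 fold change of -1.61 went to -0.997 with a pseudocount of 5. Many of these genes are also transcribed in macrophages, neutrophils and B cells, whose markers were higher with TRAIL, and the part of those cells in the rise was not tested.

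Upstream of immediate early genes, the cAMP response element TGACGTCA was found for 3 of the 16 higher genes with a promoter (20 called), Btg2, Dusp1 and Maff, compared with 1.77% of all genes. The core of the CArG box, to which serum response factor binds, was searched in 6 spellings and found for 1 of the 16, Zfp36, compared with 0.396% of all genes. Stretches of 2 promoters are shown with the cAMP response element in capitals.
Btg2 (chr1:134079294-134079373, minus strand): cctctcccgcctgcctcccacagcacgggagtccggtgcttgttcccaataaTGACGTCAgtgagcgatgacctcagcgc
Dusp1 (chr17:26508588-26508667, minus strand): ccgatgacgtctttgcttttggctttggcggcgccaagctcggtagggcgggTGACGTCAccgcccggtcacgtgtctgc
In all, 7 searches were made, and each share above is a description with no test.

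**Figure D4:**
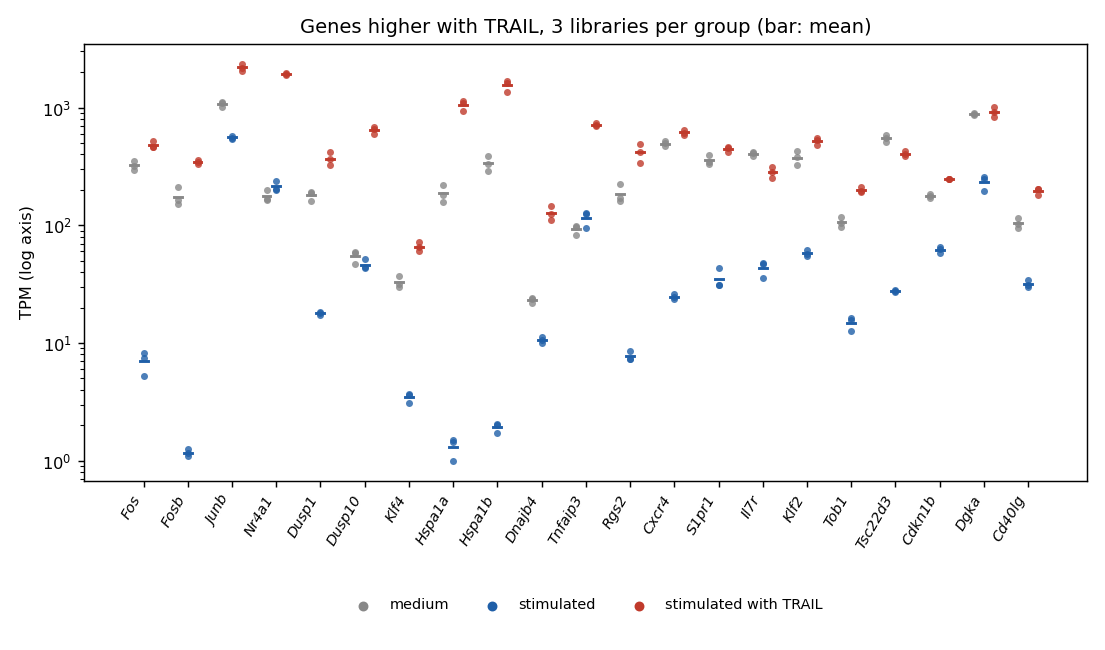
TPM on a log axis of 21 genes that were higher with TRAIL, with 1 point per library, bars at the group means and 3 libraries each in medium (grey), stimulated (blue) and TRAIL-treated (red) groups. The TRAIL-treated points lie above all stimulated points for every gene shown, and for Hspa1b they lie at 1343 to 1690 TPM against 1.73 to 2.05 TPM.

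Regulators of signaling moved in both directions. In NF-κB signaling 4 of 18 genes were higher and 7 lower (4 higher and 6 lower of the 17 at 1 TPM in both groups). Tnfaip3, which encodes the inhibitor A20, measured 94.5, 126 and 124 TPM after stimulation and 696, 736 and 713 TPM with TRAIL, and Nfkbid, a nuclear IκB protein, measured 63.5, 62.6 and 54.9 TPM in stimulated and 306, 310.2 and 312 TPM in TRAIL-treated libraries. Rel was called higher (36.4 ± 7.27 TPM after stimulation and 110.5 ± 2.28 TPM with TRAIL), whereas other subunits were called lower. Nfkb1 was 370.2 ± 71.9 TPM after stimulation and 134 ± 15.9 TPM with TRAIL, and Nfkb2 was 196 ± 11.1 TPM after stimulation and 72.8 ± 5.07 TPM with TRAIL. MAPK feedback genes had 4 of 14 higher and 2 lower. Dusp10, a phosphatase of JNK and p38, measured 42.9, 51.4 and 44 TPM without and 599, 662 and 679.7 TPM with TRAIL, and Spry1, an inhibitor of growth factor signaling, measured 56.4, 56.6 and 49.1 TPM after stimulation and 11.1, 12.6 and 11 TPM with TRAIL. Among regulators of G protein signaling 5 of 11 were higher and 2 lower (3 higher and 2 lower of the 9 at 1 TPM in both groups), with Rgs2, which B cells and myeloid cells express too, at 8.49, 7.35 and 7.32 TPM in stimulated and 336, 420 and 489 TPM in TRAIL-treated libraries and Rgs16 at 54.3, 57 and 45.6 TPM without and 10.8, 11.9 and 11 TPM with TRAIL. The mRNA decay list had 6 of 19 higher and 2 lower, and Zfp36l2, which destabilizes AU-rich mRNAs, measured 116, 136 and 130.1 TPM after stimulation and 839.6, 885 and 843 TPM with TRAIL.

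Factors of naive and resting T cells had 9 of 20 higher and 1 lower, with a median of 0.99. Klf2, which maintains quiescence and the expression of S1pr1, measured 54.6, 62 and 56.9 TPM in stimulated and 528, 546 and 482 TPM in TRAIL-treated libraries, and Tob1, an antiproliferative protein, measured 12.7, 15.8 and 16.2 TPM without and 193, 213 and 195 TPM with TRAIL. Btg1 measured 187, 191 and 190.4 TPM after stimulation and 948, 1032 and 986 TPM with TRAIL. The TRAIL-treated libraries were above the stimulated ones throughout. Tcf7 was called higher (378, 594 and 559 TPM in stimulated and 1213, 1088 and 887 TPM in TRAIL-treated libraries), but without stimulated replicate 1 its log2 fold change went from 1.07 to 0.87, and without TRAIL-treated replicate 1 to 0.97. Satb1, a chromatin organizer, was the member called lower (727 ± 143 TPM after stimulation and 267 ± 37.2 TPM with TRAIL). Clock and glucocorticoid response genes had 8 of 16 higher and 1 lower (8 higher and 0 lower of the 15 at 1 TPM in both groups), and Tsc22d3, which encodes the glucocorticoid-induced leucine zipper, measured 28.2, 27.5 and 27.2 TPM without and 389, 402 and 425 TPM with TRAIL. Of 27 autophagy and lysosome genes 9 were higher and 1 lower, and the cathepsin gene Ctsb measured 57.5, 58.1 and 57.8 TPM after stimulation and 227, 254 and 241 TPM with TRAIL. Lysosomal genes are abundant in macrophages, so that the higher macrophage markers stand beside this count as well.

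In the TCR complex fewer genes were called than the share of all genes. Of 20 genes of the TCR complex and its proximal kinases, 2 were called higher and 0 lower. They were Themis, a regulator of TCR signal strength (30.2, 37.3 and 36.6 TPM in stimulated and 103, 99.3 and 98.1 TPM in TRAIL-treated libraries), and the Tec family kinase Txk (22.5, 25.7 and 23.5 TPM without and 77.8, 70.9 and 64.9 TPM with TRAIL). Cd247, which encodes CD3ζ, was 397 ± 40.2 TPM after stimulation and 416 ± 2.58 TPM with TRAIL, with a log2 fold change of 0.07 ± 0.09 and overlapping libraries. Adaptors and downstream kinases had 6 of 23 higher and 0 lower, beside 17.0% and 14.9% of all genes. Grap2, an adaptor of the Grb2 family, measured 49.3, 101 and 99.2 TPM after stimulation and 302, 268 and 239 TPM with TRAIL, and stimulated replicate 1 was the lowest library. Prkcq, protein kinase C-θ, had an adjusted p of 2.7e-05 from limma but stayed under the fold threshold (0.95 ± 0.11).

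Inhibitors of TCR signaling had 4 of 20 higher and 2 lower, near the 31.9% of all genes that were called. Dgka, a diacylglycerol kinase, measured 197, 258 and 247 TPM in stimulated and 1014, 911 and 830.4 TPM in TRAIL-treated libraries, and the ubiquitin ligase gene Cblb measured 122, 241 and 227 TPM without and 80.4, 68.5 and 63.7 TPM with TRAIL. Ptpn6, which encodes the phosphatase SHP-1, was 279, 365 and 368 TPM after stimulation and 327, 307 and 282 TPM with TRAIL, with overlapping libraries and a log2 fold change of -0.14 ± 0.12 (adjusted p = 0.347 from limma). Coinhibitory receptors had 5 of 16 higher and 5 lower. Lag3, a receptor of MHC class II, measured 354, 373 and 381 TPM in stimulated and 12.9, 11.9 and 11.2 TPM in TRAIL-treated libraries, and Tigit measured 98.3, 87.4 and 95.5 TPM without and 23.9, 21.9 and 21.1 TPM with TRAIL. Nt5e, which encodes the adenosine-producing enzyme CD73, measured 3.91, 5.69 and 4.61 TPM after stimulation and 23, 24.2 and 21.5 TPM with TRAIL, and Lair1 and Cd200r1, also expressed by myeloid cells, were called higher.

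Death receptor genes were mostly not called, with 1 of 22 higher and 2 lower. Tnfrsf10b, the TRAIL receptor, measured 7, 9.4 and 8.55 TPM in stimulated and 13.2, 14.1 and 11.9 TPM in TRAIL-treated libraries (0.60 ± 0.16, adjusted p = 0.00659 from limma), above the stimulated libraries in 3 of 3 but under the fold threshold. Tnfsf10, which encodes TRAIL, was 5.84 ± 0.547 TPM after stimulation and 10.6 ± 1.43 TPM with TRAIL (0.76 ± 0.12). Casp8 was 113 ± 1.91 TPM after stimulation and 119.5 ± 10.5 TPM with TRAIL (0.08 ± 0.09), with overlapping libraries. Fasl, the Fas ligand, was called higher (9.85, 11.2 and 10.3 TPM without and 29.4, 31.6 and 39.9 TPM with TRAIL), and Casp6, an executioner caspase, was called lower (226, 177 and 185 TPM after stimulation and 19.8, 19.5 and 20.8 TPM with TRAIL). The BCL2 family had 9 of 17 lower and 3 higher. Bcl2l1, which encodes the survival protein BCL-XL, measured 85.2, 99.4 and 103 TPM in stimulated and 15.5, 16.2 and 13.7 TPM in TRAIL-treated libraries, and Bnip3, a BH3 domain gene induced by low oxygen, measured 119.6, 99.3 and 96.9 TPM without and 4.48, 6.44 and 5.49 TPM with TRAIL. The members called higher, Pmaip1, Bmf and Bcl2l11, encode BH3-only proteins, which promote death. Pmaip1 was 16.1 ± 0.347 TPM after stimulation and 58.9 ± 7.68 TPM with TRAIL, and Bmf was 1.77 ± 0.133 TPM after stimulation and 9.42 ± 1.87 TPM with TRAIL. Bcl2l11, which encodes BIM, was just over the fold threshold at 1.03 ± 0.13, and without stimulated replicate 1 it was 0.90, and without TRAIL-treated replicate 2 it was 0.99.

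Mitochondrially encoded transcripts took 5.65 to 5.98% of all TPM after stimulation and 9.06, 9.41 and 11% with TRAIL, compared with 9.33 to 10.8% in medium. Of 13 such mRNAs 3 were called higher and 0 lower, and none of the 3 calls held under quantile normalization, where the log2 fold changes of mt-Co1, mt-Atp6 and mt-Co3 were 0.77, 0.47 and 0.87. mt-Co1, the most abundant, measured 11013, 10952 and 11066 TPM after stimulation and 23830, 24380 and 27780 TPM with TRAIL. The other two called were near the threshold, and mt-Co3 at 1.00 was lost without stimulated replicate 2 (0.91) or replicate 3 (0.94) or TRAIL-treated replicate 3 (0.89), and mt-Atp6 at 1.06 without TRAIL-treated replicate 3 (0.99). Several nuclear copies of mitochondrial genes are listed with like values, and reads cannot be divided between them.

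Some abundant genes had a 95% interval of the log2 fold change within -0.3 and 0.3. Ccr7, the chemokine receptor by which naive T cells enter lymph nodes, was 537 ± 21.9 TPM after stimulation and 564 ± 32.3 TPM with TRAIL and differed by 0.07 ± 0.09 on the log2 scale. Tmsb10, a thymosin that binds actin, was 2187 ± 128 TPM after stimulation and 2151 ± 62.8 TPM with TRAIL, and Gimap4 was 662 ± 13.7 TPM after stimulation and 679.5 ± 17.5 TPM with TRAIL. The libraries of the groups overlapped for Gimap4 and Lsp1 (529 ± 23.4 TPM after stimulation and 566 ± 34.4 TPM with TRAIL). The summed level of the GIMAP GTPases was 2708 to 2846 TPM after stimulation and 3736 to 3879 TPM with TRAIL. Gimap6 was called higher (676 ± 37.3 TPM after stimulation and 1644 ± 78.2 TPM with TRAIL). Gimap7 was called lower (153 ± 5.88 TPM after stimulation and 67.2 ± 1.73 TPM with TRAIL), though not under quantile normalization (-0.95). The median of this list, -0.02, turned sign under quantile normalization, under rescaling without markers of other cells and without TRAIL-treated replicate 3. Common reference genes were not all even, since Actb was 5580 ± 173 TPM after stimulation and 3549 ± 196 TPM with TRAIL (-0.65 ± 0.13, adjusted p = 9.1e-04 from limma) and Tuba1b was called lower (1152 ± 48.2 TPM after stimulation and 362 ± 10.2 TPM with TRAIL).

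**Figure D5:**
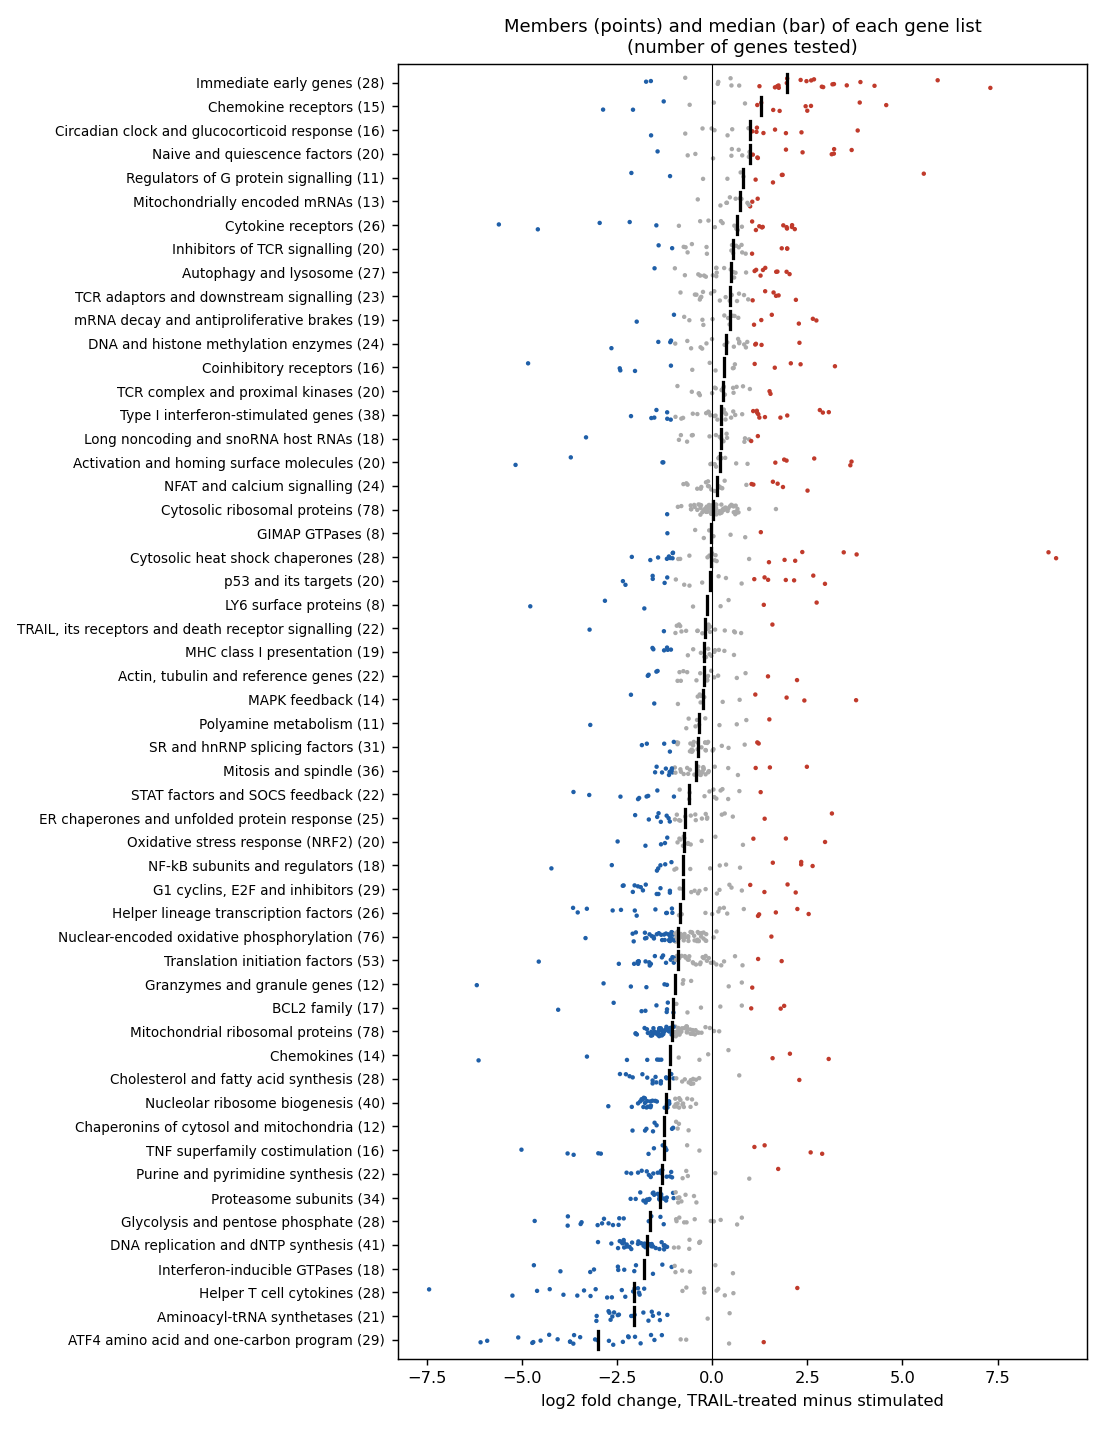
Log2 fold change of the tested members of 54 gene lists (points, red for called higher, blue for called lower, grey for others) with the median of each list (black bar), ordered by median and with the number of genes tested in parentheses. Immediate early genes stand at the top with a median of 1.97 and the ATF4 program at the bottom.

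Across the genes tested, TRAIL-treated libraries correlated at 0.9523 to 0.9689 with medium libraries and at 0.826 to 0.8475 with stimulated ones, on log2(TPM + 1). Set beside cells kept in medium, the lists differed in where the TRAIL-treated libraries lay. The comparisons below share the medium libraries and reuse the libraries compared above, so their values are given side by side only. For the ATF4 program the median log2 fold change against medium was 3.14 for stimulated and -0.04 for TRAIL-treated cells, for glycolysis 1.81 and -0.12, and for DNA replication 1.42 and -0.25. Of the 29 ATF4 members, 9 reached 1 TPM in 1 of the compared groups only, so the filter fixed part of the gap between these medians. Helper cytokines had medians of 2.30 and 0.19, and the same limit holds, since 9 of the 28 reached 1 TPM in 1 compared group only. Immediate early genes had -0.23 and 1.23, and their summed level with TRAIL exceeded that of the medium libraries (4080 to 4730 TPM). Interferon-inducible GTPases had 1.12 and -0.46, and their summed level with TRAIL was 893 to 983 TPM, under the 1247 to 1338 TPM in medium. For red pulp macrophage markers the medians were -5.53 and -0.02, and for B cell markers -3.79 and -1.08. Of the 13 macrophage markers, 5 reached 1 TPM in 1 compared group only, which fixed part of that gap, whereas all 14 B cell markers reached it in both.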

How the data were processed

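Splenic CD4+ T cells were profiled by RNA-seq in 3 libraries each of medium, stimulated and TRAIL-treated groups. RNA was taken with TRIzol, and libraries were made with an Agilent SureSelect mRNA kit. TPM values were computed and deposited by the authors. Their processing notes name Trimmomatic 0.36, HISAT2 2.1.0, SAMtools 1.2 and StringTie 2.1.2, and list the build as GRCh38, whereas the methods name GRCm38. Of the 55487 gene loci listed, 55227 had an ID in GENCODE M21 of GRCm38 and 99.343% of those had the same position. Read depth is unknown because TPM keeps none, so no counting error is given.

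Here log2(TPM + 1) of genes with at least 1 TPM in 3 of the 6 compared libraries was fitted over all 9 libraries with limma 3.58.1 (R 4.3.3), with a mean-variance trend and Benjamini-Hochberg adjustment over the genes tested. Summaries and plots were made in Python 3.11.15. In 5 sets simulated for this comparison, 90 to 95.5% of 200 genes out of 14895 that were changed by 2 on the log2 scale were recovered, with at most 4 false calls. The simulated noise was independent between genes, few genes changed, and libraries were not set to one common sum. These figures therefore do not carry over to the 4746 genes called in the data. Members and gene lists were chosen with earlier results of these data known. Genes were named by a rule: the 15 largest rises and 15 largest falls with a mean of at least 10 TPM and no overlap, up to 4 called genes in each direction and the 2 most abundant genes of each list, genes of TRAIL, its receptors and the proteins probed in the study, and the 10 most abundant genes of each group and of those with a narrow interval near 0. Promoters are from RefSeq (GRCm38.p6). A few genes are not reported here. Gene pairs or families with near-identical copies share reads. Alternatives covered the pseudocount, filter, scaling, threshold, biotype, replicate block and leaving out each library.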

Additional observations from a re-analysis of the deposited data

How the results depend on the processing

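Of 25 alternatives, 3 changed a threshold only, and in the other 22 no named gene that was called and still tested changed sign (334 of the 380 were tested on rescaling without markers of other cells, 373 with a filter of 5 TPM and 369 among protein-coding genes). The 4746 genes called (2528 higher and 2218 lower) became 2882 (1412 and 1470) with a pseudocount of 5, 10091 (4888 and 5203) with no fold threshold, and 1331 (859 and 472) with a log2 threshold of 2. Leaving out 1 library gave 4599 to 4893, the lowest without stimulated replicate 1 (2299 higher and 2300 lower). The share of calls that were higher was 53.3% and ranged from 48.4 to 64.5%, and the larger side turned to lower with a pseudocount of 5, with no fold threshold, without stimulated replicate 1, under quantile normalization (2239 higher and 2346 lower), with a filter of 5 TPM (1827 and 1937) and among protein-coding genes (1822 and 1860). Rescaling without the markers of other cells gave 2559 and 1940. The median of 6 lists changed sign in some alternative, and those whose medians are printed are given with them. Of 380 named genes called, 22 lost their call without 1 of the 6 compared libraries, 26 with a pseudocount of 5 and 19 under quantile normalization, and the cause was not tested.

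Whether replicate numbers pair the samples is not known. Deviations from the group means of libraries with the same number correlated across genes at -0.322, 0.0166 and -0.216. Those of libraries with different numbers correlated at -0.219 to 0.302. With 3 libraries in a group, deviations from its mean depend on each other, so these values cannot decide the question. With a replicate block 4748 genes were called (2530 higher and 2218 lower). TPM shares one total, so a rise of some genes lowers the values of others.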

Other observations

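Of 425 antigen receptor segments tested, 250 were called higher and 1 lower, and of the 398 at 1 TPM in a library of both groups, 226 were higher and 1 lower, beside 13.6% and 14.5% of all genes so counted. By name, 83 of 85 Ighv and 77 of 82 Igkv genes at 1 TPM in both groups were higher and 0 lower, and they moved with the B cell and plasma cell markers. Among segments of the T cell receptor, of 108 Trav genes at 1 TPM in both groups, 15 were called higher and 0 lower, near the share of all genes for higher calls, and the summed level of all Trav genes was 884 to 1008 TPM after stimulation and 1497 to 1626 TPM with TRAIL. Of 23 Trbv genes, 9 were higher and 0 lower. At 1 TPM in both groups, long noncoding RNAs and unclassified transcripts had 16.6% of 739 higher and 7.17% lower, and pseudogenes had 62 of 1424 higher and 216 lower.

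Genes called lower with TRAIL held 240741 TPM in stimulated and 73122 TPM in TRAIL-treated cells as group means, and genes called higher held 69342 and 223248 TPM. Of genes that reached 1 TPM in no stimulated library, 658 of 847 were called higher, and of those that did so in no TRAIL-treated library, 230 of 335 were called lower. These entered the test through the group in which they were high, so their direction was fixed by the filter. Among 13713 genes with 1 TPM in a library of both groups, 1870 were called higher and 1988 lower. Among these, solute carriers had 30 of 179 higher and 32 lower, and zinc finger genes of the Zfp name 24 of 290 higher and 15 lower.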
